A study of Mus musculus with 2 samples.

Results

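The genes described here are 9 markers used to recognise mammary progenitor cells and tumor stem cells: Aldh1a1, Aldh1a3, Prom1, Kit, Cd44, Cd24a, Procr, Ly6a and Trp63. They were chosen by symbol, with no threshold on a measured value, and all 9 matched an Ensembl gene among the 55536 in the deposited table. RNA was sequenced from mammary tumors of MMTV-PyVT mice, in which a mouse mammary tumor virus promoter drives the polyoma middle T antigen in the mammary epithelium, so both groups carry this transgene. The groups were tumors of mice given cyanidin-3-glucoside (C3G, a plant anthocyanin) and tumors of mice given dimethyl sulfoxide (DMSO, the vehicle), with 1 library each. Dosing began at the stage of ductal hyperplasia, and tumors were taken when the burden reached a set limit. The mice's age, strain background and dose, and how many tumors or animals went into a library, were not given in the sources used here.

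The C3G library held 16081110 reads assigned to genes and the DMSO library 12192275, both recovered from the deposited TPM values (a share of the transcripts in a library, adjusted for gene length, so that genes can be compared). With 1 library in each group there is no test and no p-value here, and a difference between the libraries cannot be told apart from a difference between individual mice or tumors. Intervals in parentheses are exact 95% intervals for counting error alone. PCR copies of a molecule are counted as separate reads, which can make these intervals too narrow. In bulk tumor RNA, fewer cells of a type and less RNA per cell cannot be told apart. The luminal epithelial markers that define this tissue were abundant, with Krt8, Krt18 and Epcam at 1420, 1769 and 1399 TPM with C3G, against 1890, 2824 and 1484 TPM with DMSO.

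The mammary duct has an inner luminal layer and an outer basal layer, and each is thought to be renewed by its own progenitors. Progenitor and tumor stem cells are usually recognised in sorted cells by surface proteins (CD133, KIT, CD44, CD24, the protein C receptor, SCA-1), by aldehyde dehydrogenase activity, or by the basal transcription factor p63, and not by total RNA. None of these markers is specific to stem cells: KIT is also found on mast cells, the protein C receptor and SCA-1 on endothelial cells, and SCA-1 and CD44 on lymphocytes.

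The markers covered a wide range of levels, and their order was nearly the same in both libraries. Cd24a was the most abundant, at 767 TPM in the C3G library (752 to 781) and 734 TPM in the DMSO library (719 to 750), above 99.3% (C3G) and 99.1% (DMSO) of the 17468 genes with a mean of at least 1 TPM. Ly6a came next, at 140 TPM with C3G and 202 TPM with DMSO. Kit (103 TPM with C3G, 106 TPM with DMSO) and Cd44 (102 TPM with C3G, 86.2 TPM with DMSO) followed, and their counting intervals overlapped in the C3G library but not in the DMSO library. Prom1 stood at 53.7 TPM with C3G and 31.8 TPM with DMSO. Aldh1a3 (16.2 TPM with C3G, 24.2 TPM with DMSO) and Trp63 (14.9 TPM with C3G, 11.9 TPM with DMSO) came after it, with overlapping intervals in the C3G library only. Procr (3.14 TPM with C3G, 2.38 TPM with DMSO) and Aldh1a1 (2.36 TPM with C3G, 3.27 TPM with DMSO) were the lowest, exchanged places between the libraries, and overlapped in both. Summed over the 9 genes, the level was 1203 TPM with C3G and 1202 TPM with DMSO. Cd24a made up most of each sum, so their closeness says little about the other genes.

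**Figure D1:**
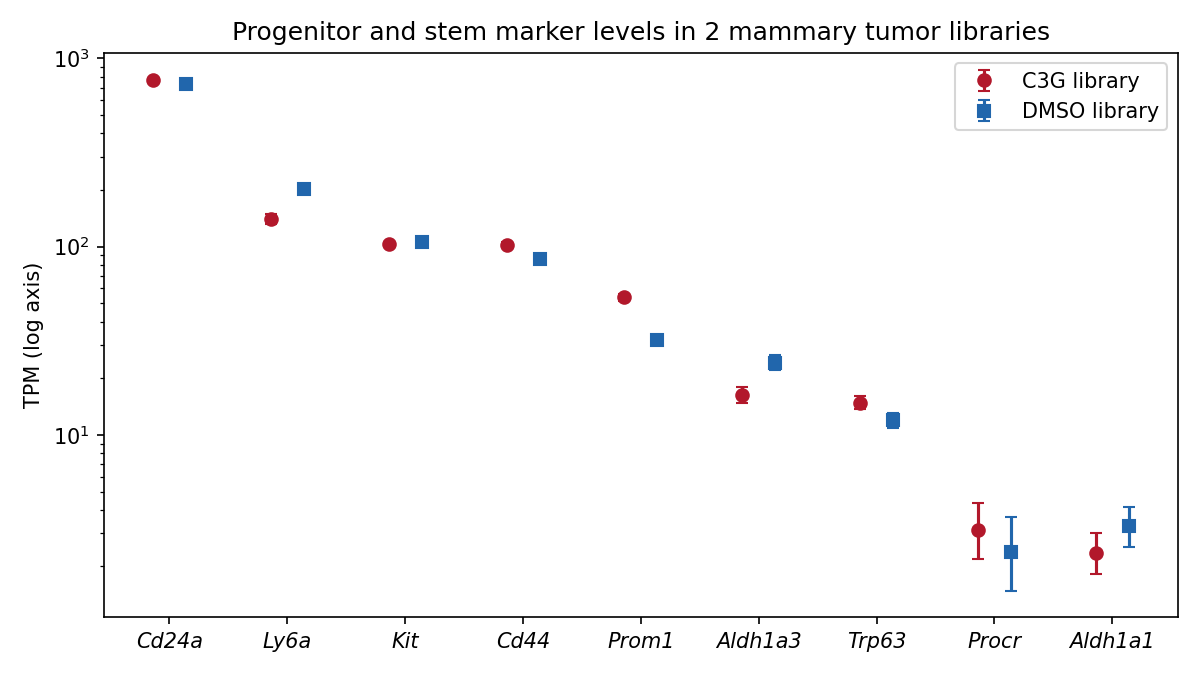
Level of each marker in TPM on a log axis, in the C3G library (circles) and the DMSO library (squares); bars are exact 95% Poisson intervals for counting error only. The order from Cd24a at 767 TPM with C3G and 734 TPM with DMSO down to the lowest pair, Procr and Aldh1a1, is nearly the same in both libraries, and Prom1 is the marker whose points lie farthest apart.

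None of the markers passed the size used to call a difference. A call by size required at least 5 TPM in the higher library and a 2-fold difference on the scale of log2((C3G TPM + 1)/(DMSO TPM + 1)), that is a value of 1 or more in size; adding 1 shrinks the differences of low genes. Of 12780 genes that reached 5 TPM, 946 were called (7.40%), 396 higher (3.10%) and 550 lower (4.30%) in the C3G library, and 0 of the 7 markers that reached this level were. When ratios were centred on the median of well expressed genes (a mean of at least 10 TPM), the split over all genes was 298 higher and 663 lower. Aldh1a1 and Procr stayed under 5 TPM in both libraries and could not have been called. On this log2 scale 5 markers lay above 0 and 4 below, with a median of 0.06, beside a median of 0.10 over all 17468 genes with a mean of at least 1 TPM. At a lower size of 1.5-fold, which 20.6% of genes passed (11.5% higher and 9.15% lower), Prom1 was called higher and the other 6 eligible markers were not called.

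**Figure D2:**
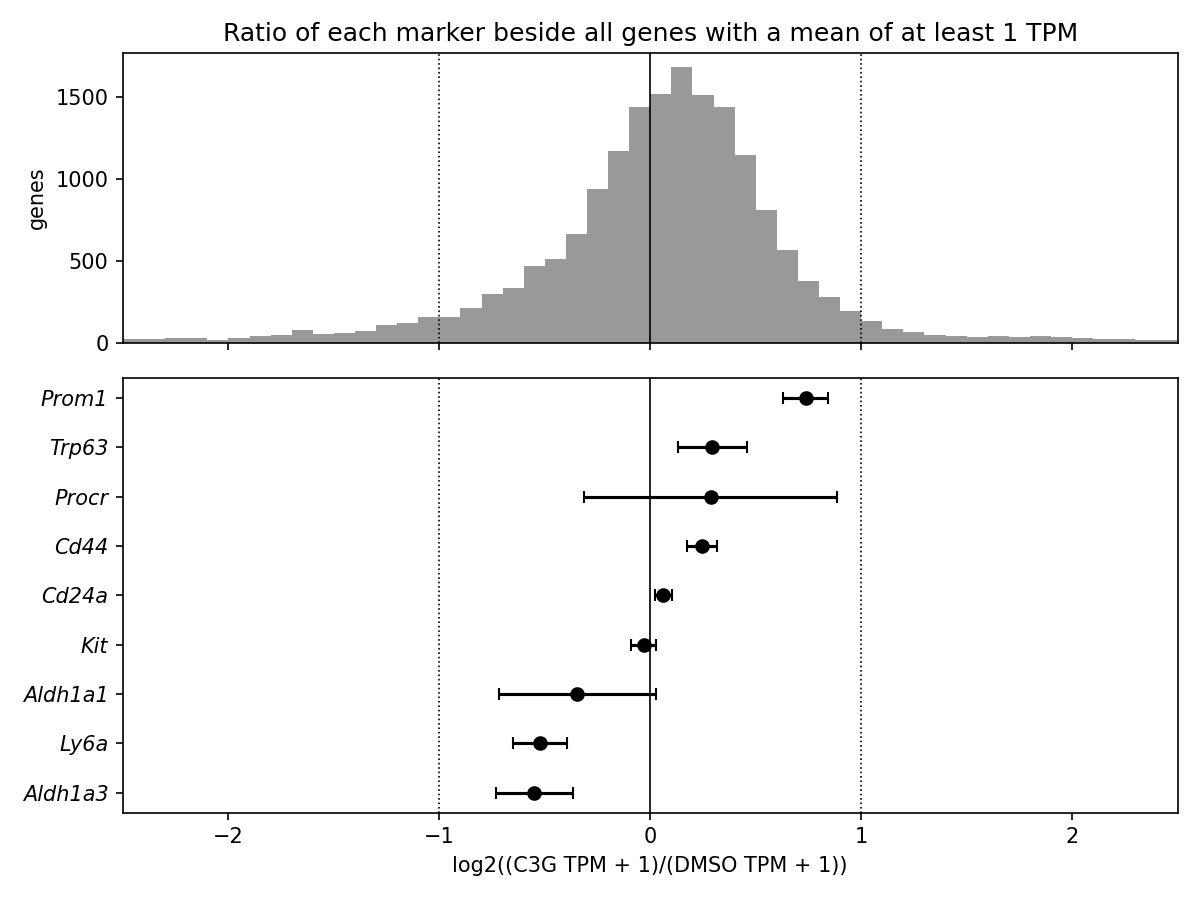
Top, number of genes by log2 ratio of C3G over DMSO, for 17468 genes with a mean of at least 1 TPM; the few beyond the ends of the axis are not drawn. Bottom, log2 ratio of each marker with its 95% counting interval. Dotted lines mark the 2-fold size; no marker reaches them, and the markers lie from -0.55 (Aldh1a3) to 0.74 (Prom1).

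Aldh1a1 and Aldh1a3 encode aldehyde dehydrogenases that oxidise retinaldehyde to retinoic acid, and the activity of this family is what the dye assay for stem-like breast tumor cells reads. Both markers were lower in the C3G library, Aldh1a3 by more than its counting error. Aldh1a3 (chr7:66390890-66427517, mm10) had 412 reads or 16.2 TPM with C3G, against 485 reads or 24.2 TPM with DMSO, a level 1.49-fold lower (1.31 to 1.71). Its log2 ratio of -0.55 was above that of 12.5% of expressed genes (those with a mean of at least 1 TPM). Aldh1a1 (chr19:20492715-20643465) had 64 reads or 2.36 TPM with C3G, against 70 reads or 3.27 TPM with DMSO, 1.39-fold lower (0.973 to 1.98), an interval that includes no difference. Aldh1a3 was thus the main transcript of the pair, 6.88 times the TPM of Aldh1a1 with C3G and 7.41 times with DMSO. That proportion differed 0.929-fold between the libraries (0.635 to 1.36).

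Aldh1a7, a close mouse paralog next to Aldh1a1 on the same chromosome, went the other way, at 4.58 TPM with C3G and 1.56 TPM with DMSO. The ratio of Aldh1a7 to Aldh1a1 was 1.94 in the C3G library and 0.478 in the DMSO library, 4.06-fold higher with C3G (1.98 to 8.67). The coding sequences of the pair, 1503 bases each, differ at 126 aligned bases, and 3.06% of the distinct 50-base runs of the Aldh1a1 transcripts also occur in Aldh1a7. Their most alike stretch of 150 bases, coding bases 121 to 270 from GENCODE M21 (GRCm38, chromosome 19, Aldh1a1 on the plus strand and Aldh1a7 on the minus strand), is shown because reads from it can be assigned to either gene. It is written 5′ to 3′ along each transcript, with capitals at the 2 bases that differ.
Aldh1a1: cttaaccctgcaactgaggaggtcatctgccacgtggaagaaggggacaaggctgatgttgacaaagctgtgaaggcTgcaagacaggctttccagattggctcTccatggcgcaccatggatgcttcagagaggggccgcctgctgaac
Aldh1a7: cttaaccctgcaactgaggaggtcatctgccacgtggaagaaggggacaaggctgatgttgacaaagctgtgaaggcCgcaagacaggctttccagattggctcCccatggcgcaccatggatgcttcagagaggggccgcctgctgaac
Most of the remaining sequence separates the genes. Summed, Aldh1a1 and Aldh1a7 stood at 6.94 TPM with C3G and 4.83 TPM with DMSO, so the direction for Aldh1a1 alone is opposite to that of the sum.

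Few of the other genes of aldehyde and retinoid metabolism were called, counts too small to set apart from the 7.40% of all genes. Of 18 other aldehyde dehydrogenase genes, 12 reached 5 TPM and 0 were called by size, with a median log2 ratio of 0.24 over the 16 measured. Of those that reached 5 TPM, the farthest from 0 were Aldh1l1, a folate enzyme, at 2.82 TPM with C3G and 5.36 TPM with DMSO, and the mitochondrial enzymes Aldh6a1 (33.2 TPM with C3G, 21.7 TPM with DMSO), Aldh5a1 (8.73 TPM with C3G, 5.47 TPM with DMSO) and Aldh18a1 (62.3 TPM with C3G, 42.8 TPM with DMSO). Aldh1a2, the other retinaldehyde dehydrogenase of the group, stood at 2.01 TPM with C3G and 1.94 TPM with DMSO. Of 20 retinoid pathway genes, 11 reached 5 TPM and 1 was called, with a median of 0.10 over 16. That gene was Rbp4, a retinol carrier also made by fat cells, at 73 reads or 9.89 TPM with C3G, against 6 reads or 1.03 TPM with DMSO, 9.60-fold higher (4.20 to 27.0). The 6 adipocyte markers summed to 986 TPM with C3G and 180 TPM with DMSO, and their part in the Rbp4 difference was not tested. The retinoic acid receptor Rara was at 19.7 TPM with C3G and 33.8 TPM with DMSO, and the retinol dehydrogenase Rdh11 at 33.9 TPM with C3G and 24.6 TPM with DMSO. Neither was called.

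Prom1 encodes prominin-1 (CD133), a membrane protein of cell protrusions that marks tumor-initiating cells in several cancers and, in the mouse mammary gland, luminal cells that carry hormone receptors. It was the marker with the largest difference. Prom1 (chr5:43993620-44102032) had 2118 reads or 53.7 TPM with C3G, against 990 reads or 31.8 TPM with DMSO, 1.69-fold higher (1.56 to 1.82). Its log2 ratio of 0.74 was above that of 91.7% of expressed genes. Its paralog Prom2 stood at 47.2 TPM with C3G and 38.0 TPM with DMSO, so Prom1 was the more abundant of the pair with C3G (1.14 times Prom2) and the less abundant with DMSO (0.837 times). The shift of that proportion was 1.36-fold (1.21 to 1.53). The kit does not mark the strand, and an antisense gene, Gm16401, shares 424 exon bases with Prom1, 5.91% of its exon length, but was listed at only 0.175 TPM with C3G and 0.222 TPM with DMSO.

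Kit encodes the receptor tyrosine kinase for stem cell factor and marks luminal progenitors in the mouse mammary gland. Its level did not differ beyond counting error. Kit (chr5:75574916-75656722) had 5066 reads or 103 TPM with C3G, against 4081 reads or 106 TPM with DMSO, a ratio of 0.979 (0.940 to 1.02). For counting error alone, the interval holds no change beyond 1.06-fold either way. The scaling moved Kit past that interval, which is -0.089 to 0.030 on the log2 scale. Its log2 ratio was -0.15 with centring and -0.24 with trends of gene length and GC content removed. The ligand gene of Kit, Kitl, stood at 39.1 TPM with C3G and 39.4 TPM with DMSO. The proportion of Kit to Kitl was 2.65 with C3G and 2.68 with DMSO. Set against Kit, Prom1 was at 0.519 times its TPM with C3G and 0.301 times with DMSO, a 1.72-fold shift (1.58 to 1.88), so these luminal markers did not keep their proportion. KIT is also carried by mast cells, whose 7 markers summed to 20.9 TPM with C3G and 7.12 TPM with DMSO, with 2 called higher. Those were Mcpt4, with 45 reads with C3G and 7 with DMSO, and Tpsb2, with 58 reads with C3G and 9 with DMSO. Cma1 had 32 reads with C3G and 12 with DMSO and was not called, Cpa3 had 13 reads with C3G and 12 with DMSO, and Tpsab1, Fcer1a and Ms4a2 were at 0 in both. The part of mast cells in the level of Kit was not tested.

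The other luminal progenitor genes stayed within the size used. All 10 listed reached 5 TPM and 0 were called, a count too small to set apart from the 7.40% of all genes, with a median log2 ratio of -0.02, 5 above and 5 below 0. The transcription factors Elf5 (235 TPM with C3G, 222 TPM with DMSO) and Sox10 (417 TPM with C3G, 414 TPM with DMSO) were close to equal. Sox9, a factor of luminal progenitors, stood at 149 TPM with C3G and 233 TPM with DMSO. The secreted proteins Wfdc18 (5929 TPM with C3G, 8065 TPM with DMSO) and Ltf (624 TPM with C3G, 822 TPM with DMSO) were also below 0, and the collagen receptor subunit Itga2 was at 10.6 TPM with C3G and 7.66 TPM with DMSO.

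Cd44 encodes the hyaluronan receptor and Cd24a a small, heavily glycosylated surface protein. In human breast tumors, cells with much CD44 and little CD24 were described as tumor-initiating, whereas in the mouse gland CD24 is high on luminal and lower on basal cells. Cd44 (chr2:102811141-102901665) had 3811 reads or 102 TPM with C3G, against 2531 reads or 86.2 TPM with DMSO, 1.19-fold higher (1.13 to 1.25). Cd24a (chr10:43578284-43584265) had 10868 reads or 767 TPM with C3G, against 8215 reads or 734 TPM with DMSO, a ratio of 1.04 (1.01 to 1.07). Both differences exceed counting error but are small, and the sign of each turned under at least 1 other scaling: the log2 ratio of Cd44 was above that of 63.5% of expressed genes and that of Cd24a above 46.3%. The proportion of Cd44 to Cd24a was 0.134 with C3G and 0.117 with DMSO, 1.14-fold higher (1.07 to 1.21). Trends with gene length and GC content were not removed from this proportion. With them removed, the log2 ratios were -0.01 for Cd44 and -0.08 for Cd24a, closer together than the 0.25 and 0.06 as reported. Gene totals do not separate the variant exons of Cd44, a gene with 9 annotated transcripts, so a change in isoforms could not be seen.

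Of 17 CD44 ligand, hyaluronan and splicing genes, 12 reached 5 TPM and 1 was called, with a median of 0.24 over 16. That count is too small to set apart from the 7.40% of all genes. The called gene was Tnfaip6, a secreted hyaluronan-binding protein of inflammation, at 115 reads or 12.2 TPM with C3G, against 34 reads or 4.59 TPM with DMSO, 2.67-fold higher (1.81 to 4.04). The hyaluronidase Hyal2 (45.4 TPM with C3G, 23.7 TPM with DMSO) and the hyaluronan receptor Hmmr (19.1 TPM with C3G, 10.5 TPM with DMSO), which also acts on the mitotic spindle, were higher without reaching the size. Osteopontin (Spp1), a secreted ligand of CD44, stood at 1536 TPM with C3G and 2226 TPM with DMSO. The splicing regulators of Cd44 were Esrp1 at 151 TPM with C3G and 109 TPM with DMSO, and Esrp2 at 77.0 TPM with C3G and 58.5 TPM with DMSO.

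Procr encodes the endothelial protein C receptor and marks multipotent stem cells in the basal layer of the mouse gland. It was too low to compare. Procr (chr2:155751117-155755471) had 35 reads or 3.14 TPM with C3G, against 21 reads or 2.38 TPM with DMSO, a ratio of 1.32 (0.744 to 2.38). At this depth neither no difference nor a 2-fold rise was outside the interval. Of 11 other protein C pathway genes, 5 reached 5 TPM and 1 was called, a count too small to set apart from the 7.40% of all genes. The called gene was the endothelial receptor thrombomodulin (Thbd), at 203 reads or 9.92 TPM with C3G, against 62 reads or 3.84 TPM with DMSO, 2.58-fold higher (1.94 to 3.49). Protein S (Pros1), a cofactor of protein C, was at 121 TPM with C3G and 83.8 TPM with DMSO. The thrombin receptor F2r was at 23.0 TPM with C3G and 19.2 TPM with DMSO, and tissue factor (F3), which starts coagulation, at 69.9 TPM with C3G and 116 TPM with DMSO. All 8 endothelial markers were above 0, 5 of them called higher, with a sum of 92.0 TPM with C3G and 35.5 TPM with DMSO and none at 0. Their part in the levels of Procr and Thbd was not tested.

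Ly6a encodes SCA-1, a surface protein anchored by a lipid, known from mouse blood stem cells, mammary progenitors, endothelium and lymphocytes, and inducible by interferon. Ly6a (chr15:74994877-74998031) had 930 reads or 140 TPM with C3G, against 1056 reads or 202 TPM with DMSO, 1.44-fold lower (1.32 to 1.57). Its log2 ratio of -0.52 was above that of 13.4% of expressed genes. Its neighbour and paralog Ly6c1 went the other way, at 313 reads or 34.0 TPM with C3G, against 179 reads or 24.6 TPM with DMSO. The proportion of Ly6a to Ly6c1 was 4.14 with C3G and 8.21 with DMSO, a 0.504-fold shift (0.408 to 0.620).

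Ly6a was the marker with the most sequence in common with other genes, so the assignment of its reads is uncertain. Of its distinct 50-base runs, 19.0% occur in 4 other genes and 15.0% in Ly6c1. The other 8 markers shared between 0% and 5.10%. The most alike stretch of 150 coding bases of Ly6a and Ly6c1 (coding bases 1 to 150, GENCODE M21, GRCm38, chromosome 15, minus strand) is shown in the direction of the transcripts. No 50-base run inside it is free of capitals, so the shared 50-base runs lie at least partly outside it. Capitals mark the 14 bases that differ.
Ly6a: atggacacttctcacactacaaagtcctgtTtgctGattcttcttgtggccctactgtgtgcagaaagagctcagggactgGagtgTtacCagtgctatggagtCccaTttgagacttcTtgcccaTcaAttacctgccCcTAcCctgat
Ly6c1: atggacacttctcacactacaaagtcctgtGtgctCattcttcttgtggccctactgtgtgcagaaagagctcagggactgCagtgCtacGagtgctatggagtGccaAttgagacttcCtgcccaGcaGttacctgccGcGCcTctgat
How reads with several possible origins were counted is not given in the sources used here. With Ly6c1, Ly6c2 and Ly6i added to it, the Ly6a group summed to 176 TPM with C3G and 229 TPM with DMSO, in the same direction as Ly6a alone.

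Of 13 other Ly6 family genes, 5 reached 5 TPM, with 1 called higher and 1 lower, too few to set apart from the 7.40% of all genes. Gpihbp1, which carries lipoprotein lipase across the endothelium, was called higher at 113 reads or 8.05 TPM with C3G, against 26 reads or 2.35 TPM with DMSO, 3.43-fold (2.22 to 5.47). Ly6d, an epithelial and lymphoid surface protein, was called lower at 54.1 TPM with C3G and 110 TPM with DMSO. The abundant and interferon-inducible Ly6e stood at 1619 TPM with C3G and 2314 TPM with DMSO. The measures of interferon response and T cells lay in the same direction as Ly6a. All 7 interferon response genes were below 0, 3 of them called lower, with a sum of 899.8 TPM with C3G and 1577 TPM with DMSO. All 7 T cell markers were below 0, with a sum of 10.1 TPM with C3G and 32.2 TPM with DMSO. Only 2 of the T cell markers reached 5 TPM, and both were called lower. Those were Cd2, with 11 reads with C3G and 53 with DMSO, and Trac, with 18 reads with C3G and 40 with DMSO. No marker of either list was at 0. The endothelial sum, given with Procr, lay in the other direction. The part of these in the level of Ly6a was not tested.

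Trp63 encodes p63, the transcription factor that maintains the basal layer of stratified and glandular epithelia. Trp63 (chr16:25683763-25892102) had 685 reads or 14.9 TPM with C3G, against 434 reads or 11.9 TPM with DMSO, 1.25-fold higher (1.10 to 1.41), and its log2 ratio of 0.29 was above that of 67.6% of expressed genes. Gene totals do not separate the full-length form from the form without the transactivation domain, and the gene has 8 annotated transcripts. Keratin 5 (Krt5), a basal keratin and p63 target, stood at 48.4 TPM with C3G and 36.2 TPM with DMSO. The proportion of Trp63 to Krt5 was 0.307 with C3G and 0.329 with DMSO, a 0.932-fold shift (0.776 to 1.12) within counting error. The contractile genes in the basal and myoepithelial list lay in the other direction, with Acta2, smooth muscle actin, at 318 TPM with C3G and 712 TPM with DMSO. Bulk RNA does not show which cells made these contractile transcripts, and their origin was not tested. Over the 6 basal and myoepithelial markers, Krt5 alone was above 0, 3 contractile genes were called lower, and the sum was 534 TPM with C3G and 1066 TPM with DMSO.

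Of 14 other p53 family and p63 target genes, 10 reached 5 TPM and 0 were called, with a median of -0.20 over 11, 3 above and 8 below 0. That count is too small to set apart from the 7.40% of all genes. Among the 10 that reached 5 TPM, the largest differences were those of the cell cycle regulators Sfn (117 TPM with C3G, 210 TPM with DMSO) and Cdkn1a (23.0 TPM with C3G, 39.8 TPM with DMSO), both also targets of p53, and of the basal adhesion genes Col17a1 (11.4 TPM with C3G, 7.71 TPM with DMSO) and Itga3 (23.1 TPM with C3G, 30.9 TPM with DMSO). The paralog Trp73 was at 0.263 TPM with C3G and 0.0417 TPM with DMSO. Of 15 basal and mammary stem cell genes, 10 reached 5 TPM and 0 were called, also too few to set apart from that share, with a median of -0.02 over 14. Tspan8, a tetraspanin of a subset of mammary stem cells, came closest at 526 reads or 56.2 TPM with C3G, against 810 reads or 109.8 TPM with DMSO, 0.512 times the DMSO level (0.458 to 0.573). The keratin Krt17 stood at 20.8 TPM with C3G and 33.2 TPM with DMSO. The integrin subunit Itga6, sorted for as CD49f, was at 120 TPM with C3G and 84.0 TPM with DMSO, and Id4, a regulator of basal cells, at 20.5 TPM with C3G and 29.4 TPM with DMSO.

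Of 17 tumor stem cell and pluripotency genes, 9 reached 5 TPM and 2 were called, both lower, with a median of -0.03 over 10. That count is too small to set apart from the 7.40% of all genes. The transcription factor Klf4 had 1494 reads or 89.2 TPM with C3G, against 2656 reads or 201 TPM with DMSO, 0.444 times the DMSO level (0.416 to 0.473). The kinase gene Dclk1, a marker of tuft cells and of some tumor stem cells, had 175 reads or 2.08 TPM with C3G, against 389 reads or 5.87 TPM with DMSO, 0.355 times (0.295 to 0.425). The Polycomb gene Bmi1 was at 44.2 TPM with C3G and 27.0 TPM with DMSO, and the efflux transporter Abcg2 at 8.53 TPM with C3G and 4.98 TPM with DMSO, neither called. The embryonic pluripotency genes Sox2 and Pou5f1, with Lin28b and Tdgf1, were listed at 0 in both libraries. Across the 10 lists, 86 of 137 distinct genes reached 5 TPM and 7 of them were called, 8.14% beside 7.40% of all genes, a share near the background. Klf4 was called under all 8 alternatives with a 2-fold size. Rbp4 was not called under the stricter filter on low values, nor were Gpihbp1, Dclk1, Tnfaip6 and Thbd, whose calls were also lost with a pseudocount of 5. Ly6d was not called with a pseudocount of 5 or with length and GC trends removed.

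**Figure D3:**
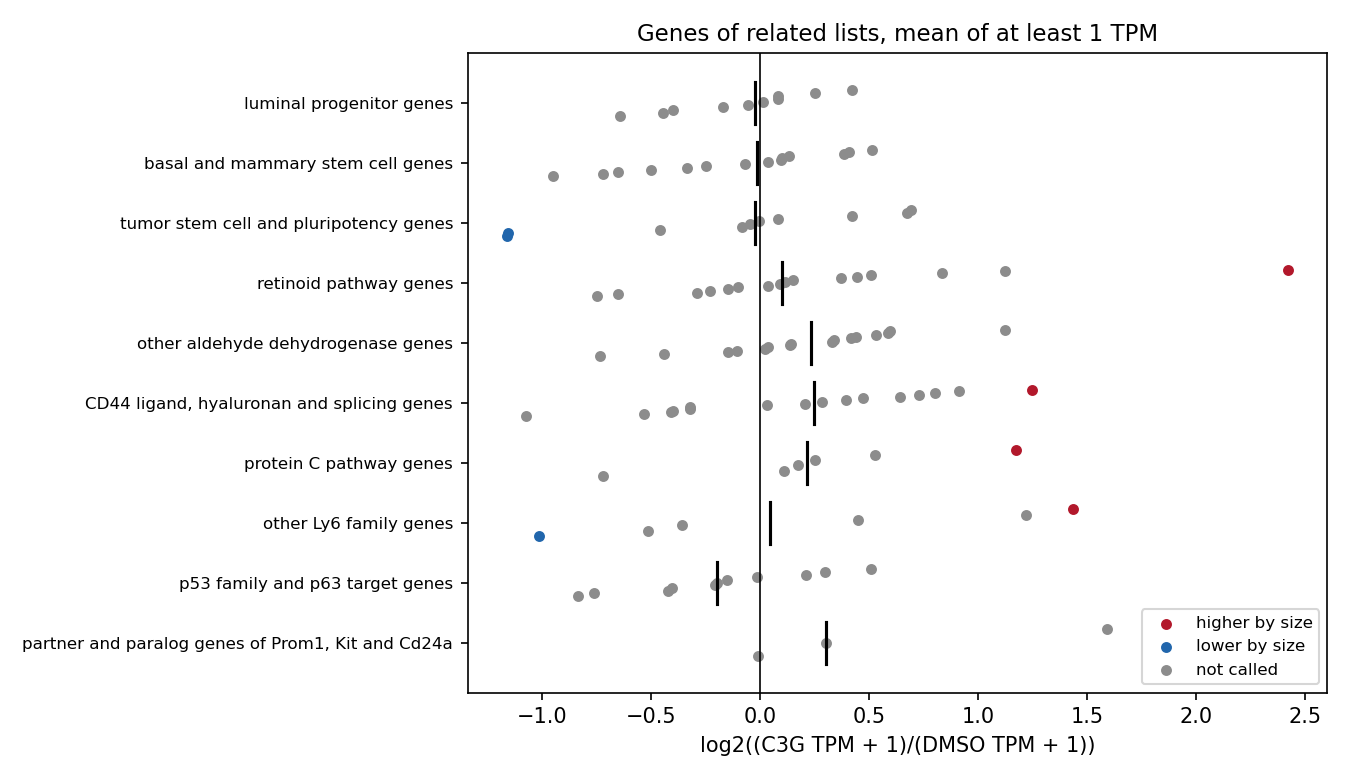
Log2 ratio of C3G over DMSO for the genes of 10 related lists with a mean of at least 1 TPM, 1 point per gene; black bars are list medians and colours mark calls by size. The medians lie between -0.20 and 0.30, and the called genes are spread over 5 lists.

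The libraries differed in the marker RNA of several cell types, and in the keratins of the luminal epithelium, which some of the 9 genes also mark. The adipocyte sum was 5.47 times as high with C3G as with DMSO and all 6 of its genes were called higher, while the T cell sum was 0.313 times as high. The luminal sum was 5169 TPM with C3G and 7229 TPM with DMSO, with all 5 of its genes below 0 and 1 called lower, the keratin Krt19, at 246 TPM with C3G and 678 TPM with DMSO. The non-keratin genes of that list were close to equal, Epcam at 1399 TPM with C3G and 1484 TPM with DMSO, and Cdh1 at 336 TPM with C3G and 353 TPM with DMSO. Macrophage, fibroblast and erythroid sums lay between 0.774 and 0.855 times the DMSO level, with 0 of their genes called. Their markers were mixed in direction, with 2 of 5 macrophage, 2 of 4 fibroblast and 1 of 5 erythroid genes above 0. The pericyte sum was 38.4 TPM with C3G and 28.6 TPM with DMSO. B cell markers were near the limit of detection, at 2.18 TPM in sum with C3G and 3.53 TPM with DMSO. Ribosomal RNA loci took 0.654% of reads with C3G and 0.308% with DMSO.

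**Figure D4:**
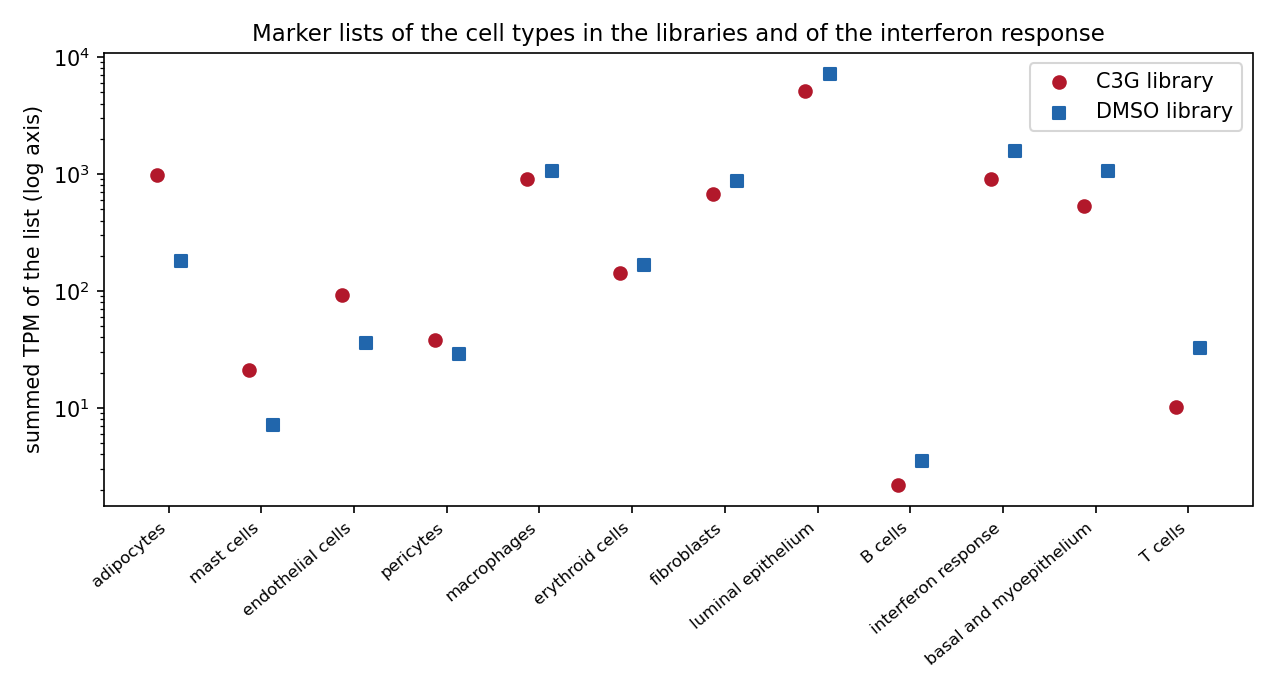
Summed TPM of each marker list on a log axis, in the C3G library (circles) and the DMSO library (squares), ordered by the ratio of C3G to DMSO. Adipocyte, mast cell and endothelial sums are higher with C3G by more than the 1.69-fold of Prom1. T cell, basal and myoepithelial, and interferon sums are lower by more than that. In the basal and myoepithelial list the contractile genes Acta2, Cnn1 and Myh11 were called lower. Its keratins Krt14 and Krt17 were lower without being called, and Krt5 was higher.

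The direction of 7 of the 9 markers was the same under every scaling tried, the exceptions being Cd24a and Cd44. Another pseudocount or a read minimum cannot turn a sign, so those alternatives say nothing about direction. For Kit, Procr and Aldh1a1 the counting interval includes no difference, so their direction was not established. Prom1 lay between 0.50 and 0.75 on the log2 scale, Aldh1a3 between -0.70 and -0.46, and Ly6a between -0.64 and -0.38. Centring on genes with a mean of at least 10 TPM lowered all ratios by 0.12, and removing trends with gene length and GC content lowered the median of all genes by 0.11. Relative to those shifts Cd24a changed sign, to -0.06 with centring and -0.08 with the trends removed. Cd44 changed sign to -0.01 with the trends removed, and Trp63 came down to 0.03. Kit came down to -0.15 with centring and to -0.24 with the trends removed, both outside its counting interval. Aldh1a1 changed sign only when summed with Aldh1a7.

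**Figure D5:**
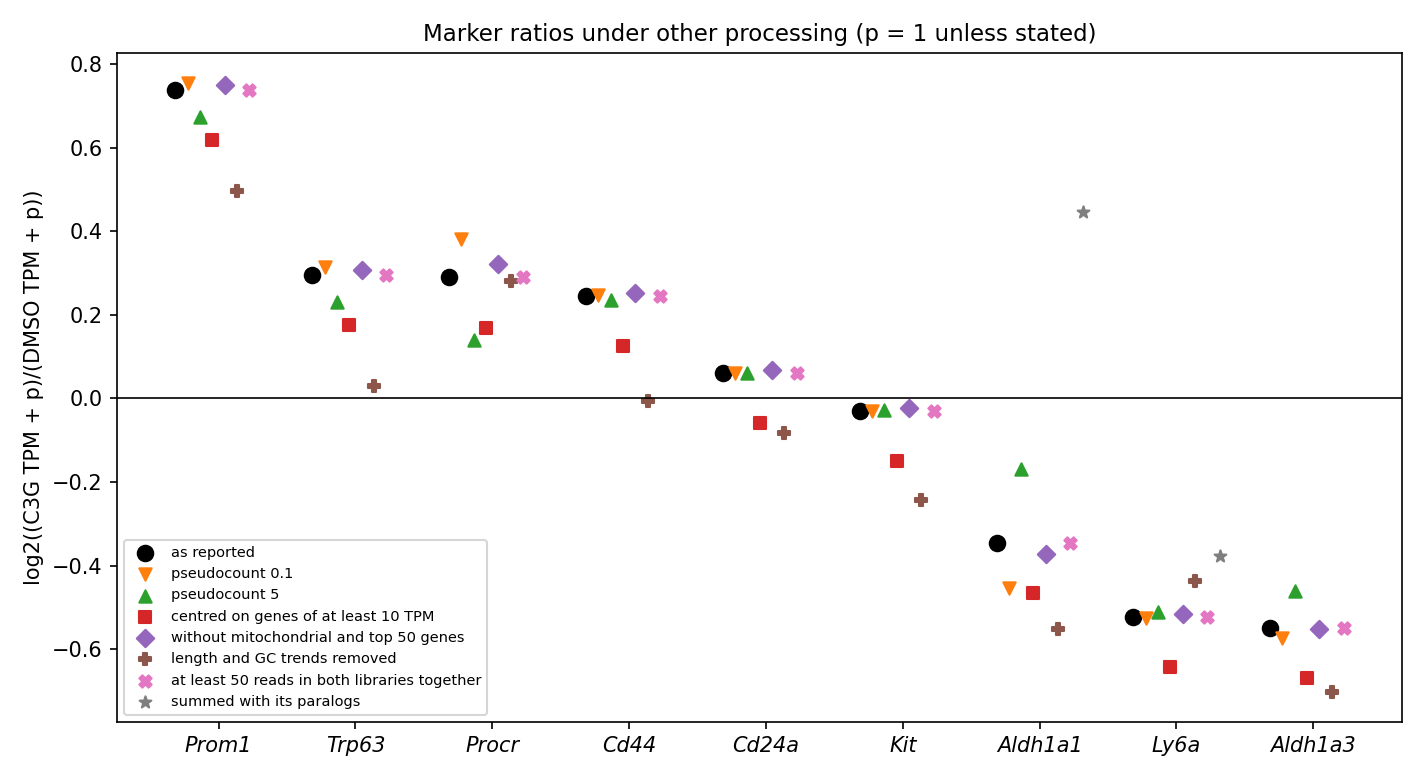
Log2 ratio of C3G over DMSO for each marker under 8 ways of processing the values, where p is the pseudocount; the sum with paralogs exists for Aldh1a1 and Ly6a only. Prom1 lies above 0 and Aldh1a3 and Ly6a below 0 under all of them, though another pseudocount or a read minimum cannot turn a sign. Cd24a and Cd44 cross 0 with another scaling, and Aldh1a1 crosses 0 when summed with its paralog.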

How the data were processed

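Tumor RNA (RNeasy Plus) was sequenced from TruSeq RNA v2 libraries, a kind that does not mark the strand, per the labels' protocols. The submitters' processing notes name build mm10 and, among the tools, Trimmomatic 0.38 and featureCounts 2.0.0. The aligner is not given in the sources used here. The authors deposited TPM values for 55536 Ensembl genes, and all of them matched GENCODE mouse M21. TPM times exon-union length gave whole multiples of 1 step for 100% of values above 0 (tolerance 0.01 of a step), and a step was taken as 1 read or read pair.

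From TPM, log2 ratios with a pseudocount of 1 and plain ratios were computed. Fold intervals are exact conditional binomial intervals and level intervals exact Poisson intervals. Medians of lists cover genes with a mean of at least 1 TPM. Shared sequence was counted as distinct 50-base runs on either strand of GENCODE transcripts, and coding sequences were aligned with Biopython 1.88. Trends with exon-union length and with GC content of the longest transcript were removed by lowess (statsmodels 0.14.6). Named genes were the 9 markers, per list up to 4 genes that reached 5 TPM and lay farthest from 0, and paralogs. Elf5, Sox10, Esrp1, Esrp2, Mcpt4, Tpsb2 cell type markers given on their own and the genes at 0 were named after their values were seen. The markers and lists were chosen with earlier results of these data known. Alternatives changed the pseudocount, the filter on low values, the scaling and the size; a minimum of 50 reads and the sums with paralogs were added after the data were seen. Some list members are not reported here. The procedure was tested on simulated data with Poisson counting error only. They held no differences between tumors, so that test says nothing about such differences.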

Additional observations from a re-analysis of the deposited data

How the results depend on the processing

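With 1 library per group no library could be left out, and no paired analysis was possible because each group has only 1 library and no result comes from a test. The count of markers called by size was 0 under all alternatives except a size of 1.5-fold, where it was 1 (Prom1). The median log2 ratio of the markers was 0.06 as reported, -0.058 with centring and -0.084 with length and GC trends removed. The count of all genes called by size, 946 as reported, was 488 with a pseudocount of 5, 2304 with no filter on low values, 350 with the stricter filter (a higher TPM of 20), 2637 at 1.5-fold and 530 with at least 50 reads. Of the related lists, 7 genes were called as reported, 2 with a pseudocount of 5, 11 with no filter, 2 with the stricter filter and 22 at 1.5-fold. The cause of these moves was not tested, beyond the number of genes that each filter or size admits. Depth limits Procr (56 reads in both libraries together) and Aldh1a1 (134 reads), and differences between tumors of the same group were not measured. The limit set by 3 reads is 0.441 TPM with C3G and 0.558 TPM with DMSO for a gene of the median exon length of 1239 bases.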
